A study of Mus musculus with 87 samples.

Results

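The libraries described here come from 1 family of mice, the offspring of T3913 and T3921, a mother and a father that were both heterozygous (Chr4-cl KO/WT) on a mixed B6x129X1/SvJ background. They are 9 of the 87 libraries of the series and were chosen by their labels: 4 offspring labelled Chr4-cl KO/KO, 3 littermates labelled Chr4-cl WT and the 2 parents. Genomic DNA was enriched with RNA probes that match both ends of the long terminal repeats (LTRs) of ETn elements and then sequenced, so that a pile of reads marks a place where an ETn element lies. The question put to the cross was whether offspring without the Chr4-cl carry more ETn insertions than their littermates.

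The KO offspring were T09673 (female, blood), T09674 (female, blood), T00436 (female, tail) and T00869 (male, ear). The littermates labelled WT were T00434 (female, tail), T00435 (female, tail) and T00464 (male, tail), and the study's methods also speak of WT offspring of this cross, while a sentence of its results calls them heterozygous. The mother T3913 was sampled from the ear and the father T3921 from the tail. The deletion had been made with a pair of Cas9 guides in B6 embryonic stem (ES) cells, mice were derived from heterozygous clones by injection into blastocysts of B6 albino mice, and B6 carriers were then crossed to 129X1/SvJ. Each parent therefore brought the deletion on a B6 chromosome, and every chromosome pair of the offspring could be B6/B6, B6/129 or 129/129. No age is given for these animals, and tissue and genotype cannot be told apart beyond the 1 KO tail library. All 7 offspring share 1 pair of parents and are called littermates here, although the litters themselves are not given. The tests below therefore describe this family and not the strain.

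ETn elements are endogenous retroviruses of the mouse that are flanked by LTRs and move by copying their RNA into new genomic sites. The Chr4-cl holds genes for KRAB zinc finger proteins (KRAB-ZFPs), a family of DNA-binding proteins that recognise retrotransposon sequence and recruit the KAP1 corepressor, which brings about histone methylation and silencing in early embryos. A copy inherited from a parent is present in every cell, whereas an insertion that arises after fertilisation is present in only part of the cells of a mouse.

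The sequences that define the assay and the deletion are given first. Both probes below are 120 bases long and were the most often listed capture probe at either end of the LTR, with the TG that opens and the CA that closes an LTR in capitals.
LTR start: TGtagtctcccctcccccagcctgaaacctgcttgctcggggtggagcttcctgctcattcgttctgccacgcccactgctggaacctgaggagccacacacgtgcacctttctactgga
LTR end: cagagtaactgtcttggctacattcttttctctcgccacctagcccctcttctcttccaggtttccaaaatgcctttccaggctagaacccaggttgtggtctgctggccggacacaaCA
The Cas9 guides match the mm9 reference on the minus strand, the second over its whole length and the first without its leading base, and set the deleted segment at chr4:144973820-147227544, which is 2.25 Mb.
Guide 1: gcaaaggggctcctcgatgga
Guide 2: gtttatggccgtgctaaggtc

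Reference sequence at a few of the single-animal insertions follows, so that the sites can be recognised. It is the plus strand of mm9 before any insertion, and the flanking primers that the study listed for the sites are in capitals. The first lies at chr4:55270577-55270858, in T09673, the second at chr5:115051014-115051313, in T09674, and the last at chr8:10770585-10770884, in T00436. In the second only 1 of the 2 primers falls in the stretch shown, and for the last only 1 flanking primer was listed. The study reports a PCR product at the flank of every insertion that it tested in T09673, T09674 and T00436. It found none of them in T3913 and T3921.
T09673, chromosome 4: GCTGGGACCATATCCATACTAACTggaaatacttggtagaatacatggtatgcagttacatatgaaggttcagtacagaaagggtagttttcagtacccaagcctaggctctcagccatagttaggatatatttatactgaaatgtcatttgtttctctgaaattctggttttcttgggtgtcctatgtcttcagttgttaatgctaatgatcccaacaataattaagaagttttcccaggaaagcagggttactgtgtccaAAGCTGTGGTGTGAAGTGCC
T09674, chromosome 5: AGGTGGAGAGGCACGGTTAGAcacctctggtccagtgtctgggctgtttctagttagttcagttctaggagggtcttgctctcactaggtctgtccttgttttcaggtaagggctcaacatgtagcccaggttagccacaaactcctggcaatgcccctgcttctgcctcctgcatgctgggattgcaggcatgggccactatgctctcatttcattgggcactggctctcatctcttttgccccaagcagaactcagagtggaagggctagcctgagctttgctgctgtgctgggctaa
T00436, chromosome 8: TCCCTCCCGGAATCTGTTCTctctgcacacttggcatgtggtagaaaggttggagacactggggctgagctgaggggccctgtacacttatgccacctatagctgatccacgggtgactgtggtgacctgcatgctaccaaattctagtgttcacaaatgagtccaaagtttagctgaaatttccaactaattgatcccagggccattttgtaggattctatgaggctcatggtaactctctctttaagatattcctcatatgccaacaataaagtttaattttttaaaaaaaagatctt

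The 9 libraries held 693512 to 902477 reads whose mate mapped to an ETn element. Levels are given as reads per 1e6 of these (RPM), and 10 RPM or more counted as a call, which is 6.94 reads in the shallowest and 9.02 reads in the deepest of the 9. Between 2580 and 2636 loci were called in each offspring, and the 9 libraries called 97.9 to 99.8% of the 2347 loci that all B6 libraries shared. T00869 stood apart from its littermates. At 129-origin loci (defined below) where an offspring was below 0.5 of the level of the parents, T00869 held a median of 10.9 RPM and none of its 13 such loci was without a read. The medians in the other 6 offspring lay between 0 and 1.32 RPM. The origin of these reads was not tested, and results that rest on T00869 are given with and without it.

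The genotype labels were first read from the deleted segment itself, which holds 12 of the ETn loci called in the series. At the strong loci of the segment the 4 KO offspring had few reads left, the parents were intermediate and the littermates labelled WT had the highest levels, while the weaker loci varied. Over all 12 loci, every littermate labelled WT was above every KO offspring at 9. At chr4:145019453-145021591, in an intron of Gm13227, T09673, T09674, T00436 and T00869 held 8.86, 8.16, 2.66 and 20.4 RPM. The littermates T00434, T00435 and T00464 held 421, 434.4 and 395 RPM there, and the parents T3913 and T3921 held 329 and 288 RPM. The groups did not overlap, with a WT-labelled mean of 417 ± 19.96 RPM (SD, n = 3) against 10.01 ± 7.44 RPM (SD, n = 4) in KO, which is 41.6-fold. B6 mice with an intact cluster held 358 ± 0.96 RPM (SD, n = 2) at this locus, and none of the 12 B6 KO libraries exceeded 19.03 RPM.

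At chr4:145080501-145083011, between genes, the KO offspring held 5.54, 4.66, 5.31 and 38.0 RPM, T00869 being the highest. The littermates labelled WT held 570, 560 and 535 RPM and the parents 402 and 402 RPM. The third strong locus, chr4:146917867-146925152, kept 84.2, 74.6, 70.4 and 115 RPM in the KO offspring, against 569, 541 and 567 RPM in the littermates and 458 and 423 RPM in the parents. The B6 KO libraries also kept a mean of 75.7 RPM there, although the locus lies inside the deletion. At chr4:145753883-145754619 the KO offspring had no read, the parents held 11.3 and 10.7 RPM and the littermates 27.1, 15.8 and 20.2 RPM, which is at least 22.8-fold above KO with 3 reads over the KO group as the floor. No B6 library with an intact cluster held a read at that last locus, so it was carried on the 129 side. One further locus, chr4:146991031-146991541, held 45.6 RPM in B6 WT mice, none in either parent, and at most 1.36 RPM in the littermates labelled WT. T00869 held 2.72 RPM there, more than any littermate labelled WT, and the other KO offspring none. At chr4:146107781-146109027 the KO offspring kept 13.3, 24.5, 11.96 and 20.4 RPM, and the littermates held 43.4, 35.7 and 41.8 RPM, so that the difference there was only 2.30-fold. At chr4:145596129-145596195, with a mean of 8.36 RPM in B6 WT mice, neither the parents nor the KO offspring had a read. Of the littermates labelled WT, T00434 held 1.36 RPM there, T00464 held 2.88 RPM and T00435 had no read.

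**Figure D1:**
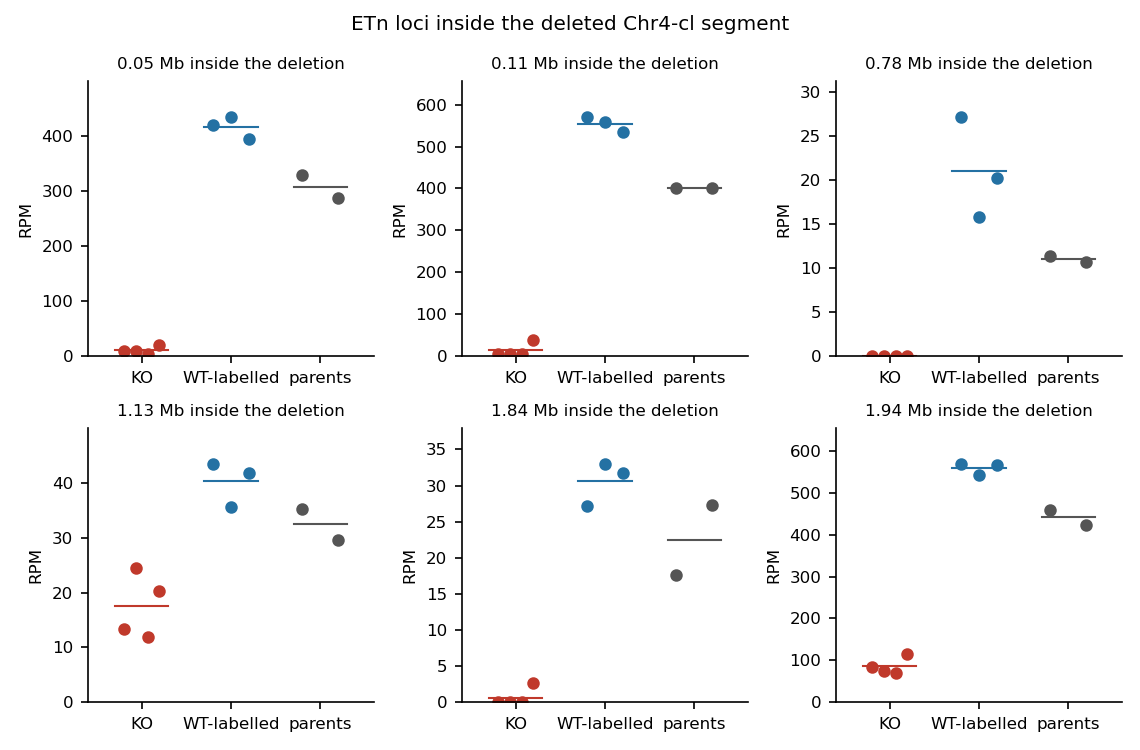
RPM at the 6 ETn loci inside the deleted segment that were called in all littermates labelled WT, each panel titled by its distance from the start of the segment. Points are libraries (4 KO, 3 WT-labelled, 2 parents), horizontal lines are group means, and the KO mean is 10.01 against 417 RPM in the first. The panels were chosen for their WT-labelled level, so the gap between the groups in them is no separate finding; over all loci tested the WT-labelled animals lay above KO without overlap at 10.5%.

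Next to the deletion, inherited loci told the 2 parental strains apart. A B6-origin locus held at least 100 RPM in all 16 B6 libraries, was called in both parents and had a parental mean under 0.75 of the B6 mean, and a 129-origin locus was called in no B6 library and held at least 100 RPM in both parents. These loci were chosen on the parents and the B6 libraries alone, which leaves the offspring as an independent readout. The level of an offspring was divided by the mean of the parents. At most loci both parents were alike, as with 1 copy each, but at 6 B6-origin loci, none of them on chromosome 4, they differed by 4.44 to 17.3-fold and the mean is not a 1-copy level. At the 6 B6-origin loci within 20 Mb of the segment the median ratio was 1.35 in T09673, 1.35 in T09674, 1.26 in T00436 and 1.34 in T00869. In T00434, T00435 and T00464 it was 0.0251, 0.0364 and 0.0262. Every KO offspring was thus above the parents and every littermate labelled WT was near 0. The values of the 3 littermates lie with the label WT, since a heterozygous animal would hold about the level of its parents at loci on both sides of the deletion and inside it.

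The flanking loci differed in how far this pattern reached. At chr4:141597384-141600417, in an intron of Tmem51, which encodes a transmembrane protein, the KO offspring held 611, 611, 435.8 and 554 RPM, the parents 405 and 417 RPM and the littermates 2.71, 9.24 and 2.88 RPM. T00436 was close to the parents here, with a ratio of 1.06, while the other KO offspring lay between 1.35 and 1.48. Beyond the segment, at chr4:147667616-147670848, T00436 reached a ratio of 1.54 and its KO littermates 1.38 to 1.40. At the 129-origin locus chr4:118577598-118579377, T09673 and T00436 held 118.6 and 85.03 RPM, whereas T09674 had no read and T00869 held 1.36 RPM. The littermates labelled WT held 116.7, 125 and 128 RPM there, next to parents of 120 and 102 RPM. Farther from the deletion, T09674 held no more than 1.17 RPM at the 5 129-origin loci between chr4:26217037 and chr4:88398330, at which the other 6 offspring kept at least 107 RPM. The single B6-origin locus far from the segment, chr4:42089693-42097185, met the definition through high B6 KO libraries (mean 277.9 RPM), and its parents (193 and 164 RPM) were at the level of B6 WT mice (170.3 RPM), so it is no readout of the strain.

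**Figure D2:**
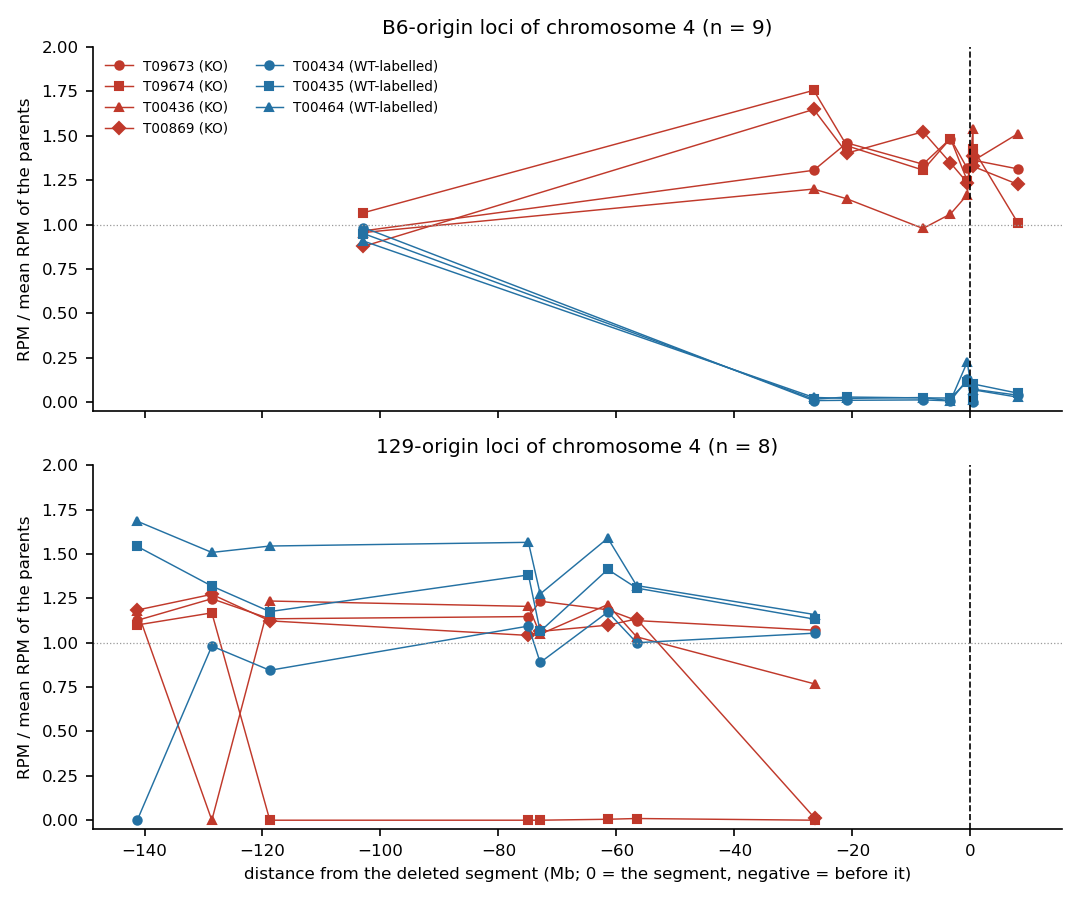
Level of each offspring over the mean of the parents (vertical axis, a ratio) at the 9 B6-origin and 8 129-origin loci of chromosome 4, by distance from the deleted segment in Mb (horizontal axis, dashed line at the segment). Lines join the loci of 1 animal; near the segment the 4 KO offspring (red) have median B6-origin ratios of 1.26 to 1.35 and the 3 littermates labelled WT (blue) 0.0251 to 0.0364.

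Over all autosomes 76 B6-origin and 65 129-origin loci on 19 chromosomes met the definition. The 987 pairs of a locus and an offspring fell into separate classes. Of these, 26.7% lay below 0.5 of the parental level, 44.9% between 0.5 and 1.2, and 28.4% at or above 1.2. The median ratio was 1.04 in the middle class and 1.41 in the upper class. A locus in the class taken as 2 copies therefore held 1.41 times the reads of the parents and not a doubling. Only 1 B6-origin pair lay between 0.5 and 0.75, so presence and absence of an inherited copy were well separated, while the border between the middle and upper classes fell within a continuous range. Without the 6 loci at which the parents differed and the 1 at the level of B6 WT, a choice made after the data were seen, the 938 pairs left were divided into 25.5%, 46.4% and 28.1%, with medians of 1.04 and 1.40 in the middle and upper classes.

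**Figure D3:**
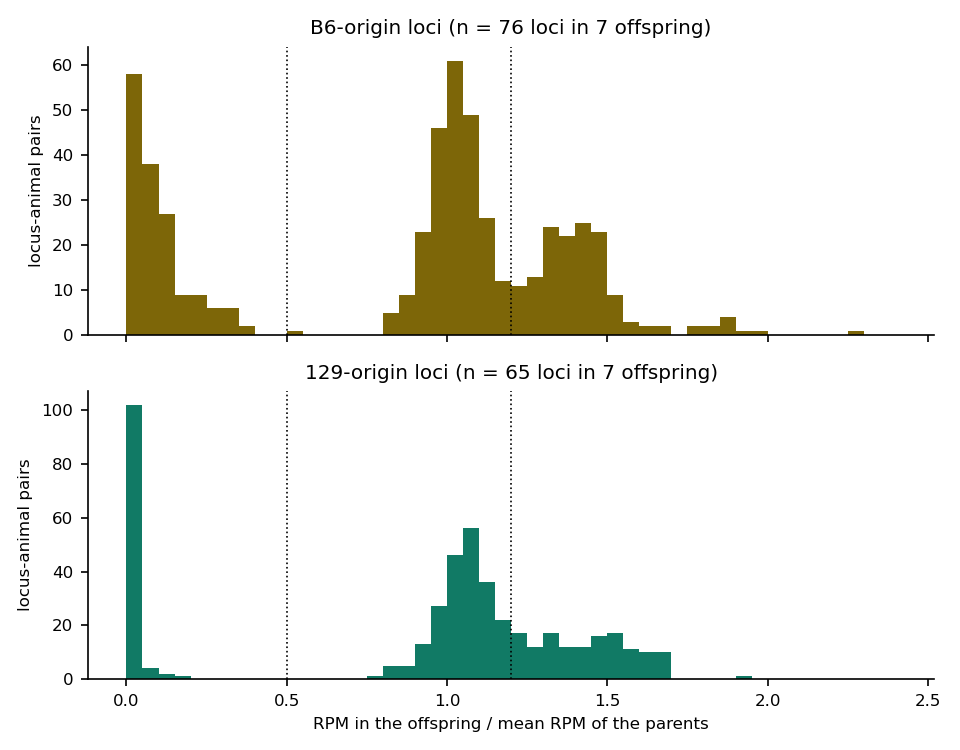
Number of pairs of a locus and an offspring (vertical axis) by the level of the offspring over the mean of the parents (horizontal axis, bins of 0.05, dotted lines at 0.5 and 1.2), for 76 B6-origin loci above and 65 129-origin loci below. Both panels have a peak near 0 and one near 1, and the upper values, whose median is 1.41 over both origins, form a shoulder or a second peak.

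The number of segregating loci called at 10 RPM per offspring was compared next. T09673, T09674, T00436 and T00869 had 128, 115, 115 and 135 of the 141 called, and T00434, T00435 and T00464 had 114, 112 and 110. The KO mean was 123 ± 9.95 (SD, n = 4) against 112 ± 2.00 (SD, n = 3), and every KO animal was above every littermate. In the exact two-sided permutation test of the rank sum p was 0.0571, the smallest that 4 against 3 animals allow, and 0.0571 after Benjamini-Hochberg adjustment over the 2 comparisons per animal. The difference lay in part on chromosome 4, and without its loci the means were 108 and 101 with an exact two-sided permutation p of 0.457. At 8 B6-origin loci of chromosome 4, all KO offspring and no littermate were at or above 0.5 of the parental level. No 129-origin locus lay within 20 Mb of the deletion to offset them. The label names the deletion on a B6 chromosome, so this part of the difference was set in advance and is no separate finding. By origin, the KO offspring called 71, 72, 71 and 76 B6-origin loci against 63, 61 and 62 in the littermates, and 57, 43, 44 and 59 129-origin loci against 51, 51 and 48. A call at 10 RPM does not show an inherited copy, since many called loci were below 0.5 of the parental level. At or above it were 55, 61, 60 and 64 B6-origin loci in KO and 43, 51 and 43 in the littermates, so T00869 called all 76 with 12 of them below. Of the 59 129-origin loci of T00869, 52 were at or above it. Counted in this way over both origins, the KO offspring had 112, 104, 104 and 116 loci and the littermates 94, 102 and 91, with the same exact two-sided permutation p of 0.0571. Without the loci of chromosome 4 the means of this count were 94 and 87 and the exact two-sided permutation p was 0.171. The groups then overlapped, with 88 in T00436 and 93 in T00435. Without T00869, which had the highest number of calls, the KO mean of called loci was 119 and the exact two-sided permutation p was 0.1, the smallest for 3 against 3 animals. Without the 7 loci that were not at 1 copy in both parents, the KO offspring called 122, 108, 110 and 128 and the littermates 108, 106 and 105, so that the groups touched, with an exact two-sided permutation p of 0.114.

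Single-animal insertions were counted as loci at 10 RPM or more in 1 animal that were called in no other animal and held no read in either parent. They were found in all 4 KO offspring and in none of the 3 littermates labelled WT. T09673 had 8, T09674 had 2, T00436 had 18 and T00869 had 1. The locus of T00869 held 10.9 RPM, which is also the median of this library at its low 129-origin loci, described above. At those loci its maximum was 21.7 RPM, so the insertion of T00869 was no higher than such reads. Whether it shares their origin was not tested. The KO mean was 7.25 ± 7.80 (SD, n = 4) and the exact one-sided permutation p for more insertions in KO was 0.0286, the smallest possible, with an adjusted exact p of 0.0571 over the 2 comparisons. The result does not pass the correction, and T00436 alone carried 18 of the 29. Without T00436 the KO mean was 3.67, and without any 1 offspring the exact one-sided permutation p was between 0.05 and 0.0667, the smallest values those numbers of animals allow. In tail DNA, the only tissue with both genotypes, there was 1 KO library with 18 insertions against 0 in each of the 3 littermates, which has no replicate.

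The count depended on what was called an insertion. At 20 RPM the KO offspring had 1, 1, 2 and 0 insertions, a mean of 1, and with at least 10 reads 8, 2, 10 and 0, each with an exact one-sided permutation p of 0.114. Both left T00869 without an insertion, so that a presence in all 4 KO offspring rested on its 1 locus of 8 reads, and without T00869 the KO mean was 9.33. At 5 RPM the KO offspring had 14, 5, 73 and 2 and the littermates labelled WT 0, 1 and 2, so that the groups touched. With reads allowed in the parents, as long as neither parent called the locus, the means were 7.50 and 1.67 and the exact one-sided permutation p was 0.143. When loci with a read elsewhere were left out, the KO offspring kept 8, 0, 16 and 1, and T09674 was then without an insertion.

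The reads at these insertions were few. The 29 loci held 8 to 30 reads, over a median width of 485 bp (227 to 848 bp), and 25 had no read in any other animal. Of the rest, 1 locus of T00436 on chromosome 2, with 8 reads, had reads in 10 other animals, 3 of these reads in siblings. The remaining ones each had reads in 1 other animal. In T09673, T09674, T00436 and T00869 the median insertion was at 16.1, 22.1, 13.3 and 10.9 RPM. Inherited loci between 0.75 and 1.2 of the parental mean, taken as 1 copy, had medians of 238, 226, 210 and 220 RPM in the same libraries. The insertions thus had 0.0674, 0.0979, 0.0633 and 0.0494 of the level of a 1-copy locus, and none reached the median of a 1-copy locus. The threshold of 10 RPM sets a floor to this ratio. The 8 insertions of T09673 and the 1 of T00869 had no read in any of the 4 sequenced offspring of these 2 animals. The rule itself left out loci called in these offspring. When they were allowed to carry the locus, the counts stayed at 8 and 1.

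**Figure D4:**
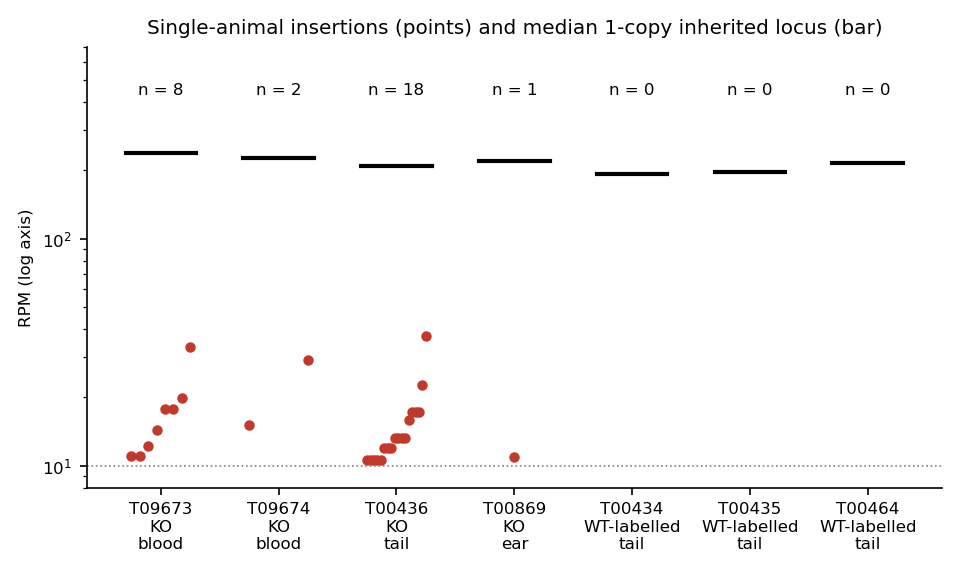
Single-animal insertions of the 7 offspring (points, RPM on a log axis) with the median 1-copy inherited locus of the same library (black bar) and the calling threshold of 10 RPM (dotted line); the tissue of each library is given below it. The 4 KO offspring carry 8, 2, 18 and 1 points, between 10.6 and 37.2 RPM, and the 3 littermates labelled WT carry none.

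The 29 insertions lay on 15 chromosomes. In the GENCODE annotation of mm9, 18 lay in genes, of which 15 in introns, 1 in a coding exon and 2 in other exons, and 11 lay between genes. None of the 29 had a match to an ETn capture probe in the reference, which allows a share of up to 11.9% (exact binomial 95% interval), whereas 99.2% of the loci common to the B6 libraries had one. Of the 129-origin loci, which were also called in no B6 library, 2 of 65 had one. Both rules left out every locus called in a B6 library, so a low share was set in advance and is no separate finding.

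Of the 12 insertions of at least 15 RPM, 11 are described. T00436 carried 6 of them. Its highest was at chr8:10770421-10771111, 37.2 RPM from 28 reads, between genes and 135680 bp from Myo16, which encodes an unconventional myosin. At chrX:45557103-45557650 it held 22.6 RPM in an intron of Zdhhc9, a palmitoyltransferase gene. Introns also held chr11:36517607-36517915 in Odz2, which encodes a teneurin of neuronal cell contacts, chr2:44649929-44650776 in Gtdc1, a glycosyltransferase-like gene, and chrX:6456480-6456987 in Dgkk, a diacylglycerol kinase gene, each at 17.3 RPM. The sixth was at chr6:51554571-51555080, 15.9 RPM, 13893 bp from the sorting nexin gene Snx10.

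T09673 carried 4, and 3 are given. Its highest was at chrX:54767330-54768003, 33.2 RPM from 30 reads, 10396 bp from Gpr101, which encodes an orphan G protein-coupled receptor. It held 17.7 RPM both at chr4:55270435-55270875, in an intron of the noncoding gene Gm12514, and at chr6:99079098-99079569, in an intron of the transcription factor gene Foxp1. T09674 carried 2, at chr5:115051090-115051470 with 29.1 RPM in an intron of BC057022 and at chr15:8726004-8726407 with 15.1 RPM, 65240 bp from the glutamate transporter gene Slc1a3. Each of the 2 loci of T09674 had reads in 1 other animal. The single locus of T00869, chr9:73951354-73951900, rested on 8 reads and 10.9 RPM and lay 6238 bp from Wdr72. It is named although it was below 15 RPM. The other 16 insertions, all in T09673 and T00436, lay below 15 RPM.

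Read support was last compared between KO and WT-labelled offspring at each of 2743 loci with at least 10 RPM in at least 2 of them. edgeR's quasi-likelihood test with Benjamini-Hochberg adjustment called 26 loci at an adjusted p of 0.05, which is 0.948% of those tested, and 284 loci had an unadjusted p under 0.05. In KO 24 were higher (0.875%) and 2 lower (0.0729%). Chromosome 4 held 21 of the 26, or 14.1% of its 149 loci tested, against 5 of 2594 (0.193%) on the other chromosomes. The labels name the genotype at the deletion, which lay on a B6 chromosome, so loci linked to it differ between the groups by inheritance. The share on chromosome 4 is therefore no separate finding. How far along the chromosome linkage reached was not tested. The called locus farthest from the deletion, chr4:28440179-28443155, held a mean of 458 RPM in KO and 352 RPM in the littermates. The 129-origin locus chr4:26217037-26219038 did not split by label, since T09674 had no read and the other offspring held 107 to 196 RPM. An effect of losing the cluster on read support cannot be told apart from linkage at the called loci of chromosome 4. KO and WT-labelled values did not overlap at any of the 26, but neither did they at 473 of all loci tested (17.2%), at 288 of which (10.5%) the WT-labelled animals were the higher.

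Both lower loci were inside the deleted segment. They were chr4:145019453-145021591, with a log2 fold change of -5.35 (SE 0.61, edgeR adjusted p = 0.0107), and chr4:146917867-146925152, with a log2 fold change of -2.68 (SE 0.18, edgeR adjusted p = 0.000751). They are named for their place and fall outside the 10 loci taken by adjusted p. Of the 12 loci of the segment 6 passed the filter, and a locus without reads in KO could pass only through the littermates. The locus chr4:145080501-145083011, with 555 ± 18.05 against 13.4 ± 16.4 RPM, missed the threshold with an edgeR adjusted p of 0.0575. DESeq2 called all 6.

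The 19 higher loci of chromosome 4 lay between chr4:28440179 and chr4:155297916, and 8 of them were B6-origin loci. Of the 10 with the smallest adjusted p, the strongest in reads was chr4:112022990-112032759, between genes and 25815 bp from Skint9, one of a family of genes expressed in thymus and skin. It held 1356, 1750, 1295 and 1335 RPM in the KO offspring, 55.6, 71.3 and 63.4 RPM in the littermates and 1362 and 1399 RPM in the parents. The log2 fold change was 4.51 (SE 0.17, edgeR adjusted p = 9.58e-05), and the KO level did not exceed that of the parents by more than the spread. Near Skint11, of the same family, chr4:113778313-113780609 held 415 ± 76.7 RPM in KO and 6.85 ± 1.28 RPM in the littermates, or 60.6-fold. At chr4:123830179-123833063, 215939 bp from the Rag GTPase gene Rragc, KO held 486 ± 69.3 and the littermates 7.29 ± 1.91 RPM.

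The other named loci of chromosome 4 behaved alike with 1 exception. Both loci near Gm13011, at chr4:136935755-136937443 and chr4:136942859-136944164, were 57.7-fold and 64.0-fold higher in KO. The locus in Tmem51 described above was 111.7-fold higher, chr4:124035810-124037390 near 3100002H09Rik 70.0-fold, and chr4:155294067-155297916 near Acap3 33.0-fold. At chr4:147689588-147692275, which overlaps an exon of Gm13206, KO held 515 ± 15.7 and the littermates 30.5 ± 6.81 RPM. The exception was chr4:121677473-121685540, 382765 bp from Gm12887, where KO held 617 ± 14.0 and the littermates 461 ± 15.7 RPM. There the log2 fold change was 0.44 (SE 0.03, edgeR adjusted p = 0.00052), and the parents lay at 561 and 608 RPM.

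Away from chromosome 4, 4 of the 5 called loci lay together on chromosome 17. They were chr17:71046274-71048258 in an intron of Dlgap1, a postsynaptic scaffold gene, chr17:75498017-75501621 in an intron of Ltbp1, which encodes a binding protein of latent TGF-beta, chr17:81601312-81603714, 136887 bp from Thumpd2, and chr17:87976454-87978800, 56519 bp from the epithelial adhesion gene Epcam. At the Dlgap1 locus the KO offspring held 228, 184, 183 and 196 RPM and the parents 174 and 152 RPM, and no littermate labelled WT had a read, which is at least 144-fold with 3 reads over the group as the floor. At the Ltbp1 locus KO held 355 ± 62.4 RPM and the 3 littermates 1 read in all. At the Thumpd2 locus the KO offspring held 204, 198, 157 and 141 RPM and the littermates again 1 read in all. At the Epcam locus they held 78.7, 67.6, 58.5 and 43.5 RPM against none. The first 3 of these were 129-origin loci, so on this stretch all KO offspring and no littermate carried the 129 copy.

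B6-origin loci of the same stretch gave the reverse readout. At chr17:87610193-87613300 T09673 and T09674 held 25.5 and 17.5 RPM, T00436 and T00869 336 and 296 RPM, and the littermates 423, 452 and 424 RPM, with parents of 281 and 311 RPM. The same order held at chr17:89884294-89888514, where the ratios to the parents were 0.12 and 0.14, 1.06 and 1.02, and 1.30, 1.36 and 1.38. These 2 loci were not called by the test and are named for their place. In all, 12 of the 141 segregating loci split the offspring by label, with 11 held only by KO (8 on chromosome 4 and 3 on chromosome 17) and 1 held only by the littermates labelled WT.

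The last of the 26 was chr8:70199646-70202743, 10238 bp from Psd3. It held 469, 485, 462 and 454 RPM in KO and 396, 392.2 and 379 RPM in the littermates, a log2 fold change of 0.28 (SE 0.04, edgeR adjusted p = 0.0217). No locus away from chromosome 4 was called lower in KO by this fit, but without T00869 2 of the 6 lower loci lay elsewhere, and with DESeq2 6 of 12. In tail libraries alone, with T00436 against the 3 littermates and the spread taken from the latter, 30 loci were called by edgeR, of which 3 were higher and 27 lower in KO, and only 5 were among the 26.

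**Figure D5:**
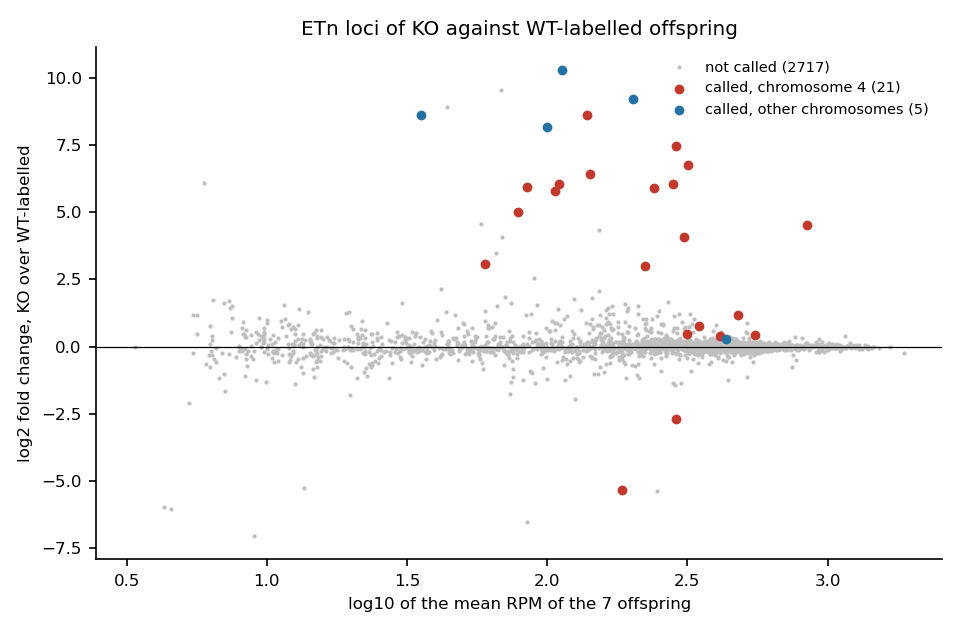
Log2 fold change of KO over WT-labelled offspring (vertical axis, edgeR) against the log10 of the mean RPM of the 7 offspring (horizontal axis) at the 2743 loci tested. The 21 loci called on chromosome 4 are red and the 5 on other chromosomes blue; 24 called loci lie above 0 and the 2 below 0 lie inside the deleted segment.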

How the data were processed

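As the paper's methods state, the authors mapped the mates of each pair separately to mm9 (Bowtie), dropped PCR duplicates (SAMtools), retained reads with a unique position whose mate hit an ETn repeat, and merged those within 1000 bp (bedtools). Their versions were not given in the sources used here. Each deposited file holds raw read counts per region of 1 library, without normalization or pooling, and the files list only regions with reads. Totals of the 9 libraries ran from 693512 to 902477. Intervals and floors cover counting error only.

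Counts were divided by the library total to give RPM. Regions of at least 10 RPM in the 76 main libraries (1 per animal or cell line) within 1000 bp were joined to 4900 loci. B6-origin loci also had a parental mean below 0.75 of the B6 mean. Replicates are littermates from separate animals, and no replicate number pairs them. The members, lists and tests were chosen with earlier results of these data known. The exact permutation test of the rank sum (one-sided for insertions, after the study's test, and two-sided as double the smaller tail for inherited loci, a convention taken after a first p had been seen) was adjusted over 2 comparisons. Loci were fitted with edgeR 4.0.16 (quasi-likelihood, TMM factors) in R 4.3.3 and DESeq2 1.42.0 as an alternative. The SE of a log2 fold change was not estimated by the model. It was derived as the absolute log2 fold change over the square root of the quasi-likelihood F statistic. Probe matches within 1000 bp were found with blastn 2.17.0 at an e-value of 1e-10. The tests were first run on simulated data with known answers. Named were insertions of at least 15 RPM, and called loci by adjusted p, 10 on chromosome 4 and 5 per direction elsewhere. No filter on annotated repeats or known polymorphic elements was applied, unlike the study's procedure. One insertion site is not reported here.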

Additional observations from a re-analysis of the deposited data

Results flagged for a closer look

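Values of the 4 KO offspring were searched for 1 animal far from its littermates, over 15 measures, of which chance would flag about 1 in 20. That rate holds for independent normal values. These measures were related, and where the other 3 animals were at 0 any read was flagged. T00869 gave all 3 such values. At 129-origin loci below 0.5 of the parental level its median was 10.9 RPM, against 0 in each of the other 3 KO offspring. At the deleted locus chr4:145080501-145083011 it held 38.0 RPM, and the others 4.66 to 5.54 RPM. At the deleted locus chr4:146815715-146816638 it held 2.72 RPM, which is 2 reads, and the others none. Without T00869 the locus test called 28 loci, of which 6 were lower in KO, against 26 and 2 with it. The origin of these reads was not tested.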

How the results depend on the processing

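No paired analysis was possible because offspring were numbered in accession order, so that a number names an animal and no pair. The insertion comparison kept its direction in all 22 alternatives, with adjusted p from 0.0571 to 0.143, and so did the comparison of segregating loci in all 19, with adjusted p from 0.0571 to 0.457. An adjusted p below 0.0571 could not be reached with these numbers of animals, so these values say nothing about stability. The count of 26 called loci stayed between 20 and 38 in the other edgeR fits, and leaving out 1 offspring gave 20 to 38 (16 to 30 on chromosome 4). DESeq2 called 44 loci (32 higher and 12 lower in KO, with 25 loci without an adjusted p), among them all 26. On chromosome 4 the tail libraries alone called 8 loci in place of 21, with 1 KO animal whose spread was taken as that of the littermates. The median insertion held 0.0654 of the level of a 1-copy locus, 0.0324 at 5 RPM and 0.14 at 20 RPM, where the threshold itself sets the lower end. The B6-origin difference beside the deletion was 1.28 to 1.31 in all 6 alternatives. The alternatives without chromosome 4, with 0.5 of the parental level, with a B6 ratio of 0.85, without the 7 loci not at 1 copy in both parents and without the deletion were added after seeing the data. Depth limits the insertions: 10 RPM is 6.94 to 9.02 reads, so loci in a small share of cells were not detectable.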
